A study of Rattus norvegicus with 30 samples.

Results

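Bdnf encodes brain-derived neurotrophic factor, and its locus on rat chromosome 3 was examined here for DNA methylation (DNAm) in the prefrontal cortex (PFC) of rats exposed to alcohol or to pair-feeding before birth. The locus was taken as the gene with 100 kb on either side, chr3:100668000-100920000 in the Rn6 assembly, in which the gene span is chr3:100768000-100820000. Peaks of all 30 animals were merged where they overlapped by at least 1 bp, and the 28 merged regions of the window called in at least 2 animals are the regions of the Bdnf locus, out of 432103 such regions on the autosomes and 28894 on chromosome 3. Of these 28 regions, 9 lie in the flank before the gene span, 4 in the gene span and 15 in the flank after it. The choice used only where peaks were called, not how the groups compare. A region called in 1 group alone entered through that group, so its direction was set by the choice.

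Methylated DNA immunoprecipitation followed by sequencing (meDIP-seq) pulls down DNA fragments with an antibody to 5-methylcytosine, so a peak marks a stretch where methylated fragments pile up. The samples were the PFC of Sprague-Dawley rats at postnatal day 22, with 10 animals in each of 3 prenatal groups, split evenly into 5 labelled as females and 5 as males. Dams of the prenatal alcohol exposed (PAE) group had free access to a liquid diet with ethanol at 36% of calories and 6.37% v/v. Each dam of the pair-fed (PF) group was matched to a PAE dam and given no more food than that dam ate, a reduced ration, as a liquid diet of equal calories in which maltose-dextrin stood in for the alcohol. Dams of the control (CON) group ate the control diet as pellets without restriction. All 3 diets ran from gestation days 1 to 21, and all dams then ate laboratory chow. The pups came from 15 dams, at most 1 of each labelled sex per dam, and no agent was given to the pups themselves. PAE against CON asks about alcohol together with its reduced food intake and the liquid diet. PF against CON asks about the reduced ration together with the liquid diet and the hunger and altered feeding pattern that the paper describes. PAE against PF asks about alcohol at a matched ration, but PAE dams ate freely while PF dams had a restricted ration, so feeding pattern differs as well. The design cannot tell these parts of a contrast from each other.

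The Bdnf protein is a secreted neurotrophin that binds the TrkB receptor, the product of Ntrk2, and the p75 receptor, and it supports the survival, growth and synaptic plasticity of neurons. The gene has several alternative non-coding first exons, each with its own promoter, spliced to a common exon that encodes the protein. Its promoter that answers to neuronal activity holds a cyclic AMP response element (CRE) bound by the factor CREB, and methylation of Bdnf promoters is a known theme in studies of early adversity. The PFC is a cortical area for executive function and the regulation of stress responses. The tissue is a mixture of neurons and glia, and in such bulk DNA a change in the share of a cell type and a change in methylation within cells cannot be told apart. Peaks give no marker expression, so the tissue label could not be checked against marker genes.

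The promoters show what meDIP could capture at this gene, since the antibody needs methylated cytosines, which in mammals lie mostly in CG pairs. RefSeq gives 6 transcription start sites for Bdnf, all on the plus strand of the GRCr8 assembly, at 0, 1202, 2338, 18225, 20169 and 20225 bases after the first. Promoter windows of 300 bases, 250 before and 50 after each start, held 12, 4, 6, 15, 12 and 7 CG pairs in that order, against a median of 7 over 33469 promoter windows of the rat. The bases before the outermost start and before the fourth start, the window with the most CG pairs, are printed 5′ to 3′ with every CG pair in capitals.
Bdnf start 1, GRCr8 chr3:116619383-116619632, plus strand: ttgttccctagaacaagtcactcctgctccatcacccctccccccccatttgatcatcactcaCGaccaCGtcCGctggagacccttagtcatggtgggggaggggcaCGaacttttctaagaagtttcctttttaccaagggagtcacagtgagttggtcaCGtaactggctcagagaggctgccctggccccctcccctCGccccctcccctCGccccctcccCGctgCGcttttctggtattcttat
Bdnf start 4, GRCr8 chr3:116637608-116637857, plus strand: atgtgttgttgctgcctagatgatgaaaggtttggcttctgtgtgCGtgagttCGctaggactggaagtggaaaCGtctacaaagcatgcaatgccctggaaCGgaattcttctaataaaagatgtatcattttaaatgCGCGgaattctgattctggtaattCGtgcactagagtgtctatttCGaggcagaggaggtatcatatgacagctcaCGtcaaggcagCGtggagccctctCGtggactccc
The window of start 1 has 9 of its 12 CG pairs in the printed bases, and the window of start 4 has 11 of its 15 in the printed bases, spread along them. The core letters of a CRE, CGTCA or its reverse complement TGACG, searched on both strands, were in 1 of the 6 Bdnf windows, that of start 4, and in 21.2% of all promoter windows. This is a match of letters only. These positions are of another assembly than Rn6, so they were not laid over the peaks, and whether a peak falls in an exon, an intron or a promoter of Bdnf was not analysed here. By name, Lin7c and Lgr4 follow Bdnf and Ahcy-ps7 precedes it in GRCr8, so the flanks can hold parts of other genes.

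The libraries held 11548314 to 16555049 filtered fragments and 103898 to 208631 autosomal peaks each, with the most peaks in CON replicate 2. The chromosome X and Y peaks split the libraries in a way that the labelled sexes do not. In 23 libraries 0.774 to 1.15% of peaks were on chromosome X with 38 to 87 peaks on chromosome Y, while 7 libraries had 2.65 to 3.14% on X with 4 to 11 on Y. Taking the second kind as female, 18 of the 30 libraries go against the labelled sex, 7 CON, 7 PF and 4 PAE. The labels split the animals evenly by sex, while the peaks on X and Y split them 23 to 7, and the cause of this was not tested. Whether the mismatch also reaches the labels of prenatal group, on which every contrast rests, was not tested. All labels were kept as given, and the results at Bdnf are also given without those 18 libraries, which leaves 3 CON, 3 PF and 6 PAE animals in a fit of group and sequencing chip. In that fit PF replicate 10 was alone on its chip and so adds nothing to the group differences. Of the CON and PF animals left, only CON replicate 6 and PF replicate 9 shared a chip. The CON animals left are all labelled males, PF replicate 5 and PAE replicate 1 are labelled females, and the fit has no sex term. The libraries were spread over 5 sequencing chips, of which UEX000295 held no PF and UEX000298 no PAE library.

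The Bdnf gene span carried few methylated regions, and they lay towards its far end. No region was called in the first 28710 bp of the span, and the stretch without a region began before the gene, running over 30667 bp from chr3:100766043 to 100796709. Over the autosomes the median gap between regions was 3337 bp, and 1.67% of gaps were at least as long as this one. Only 1 peak in 1 animal, PF replicate 6, was called within it, at chr3:100775778-100776029. The 4 regions of the gene span together covered 2734 bp, or 5.26% of it. The whole window of 252001 bp held 28 regions, while windows of the same length laid end to end over the autosomes held a median of 43, with 28.7% of 10384 windows holding as few or fewer. A missing peak means coverage below the calling threshold in that library, not absent methylation.

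The regions of the Bdnf locus were otherwise like those of the whole series in how often they were called. They were called in a median of 7 animals, against 6 over all autosomal regions. As many as 12 of the 28 (42.9%) were called in up to 5 animals, against 46.2% of all regions, and 7 (25%) in at least 15, against 23.3%. A single region was called in all 30 animals, as were 2.76% of all regions. Region lengths ran from 276 to 1093 bp with a median of 576 bp, and the median over all regions was 499 bp. Just outside the window, the nearest region before it was chr3:100661395-100661967, called in 3 animals, and the nearest after it was chr3:100922116-100923529, called in 29.

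**Figure D1:**
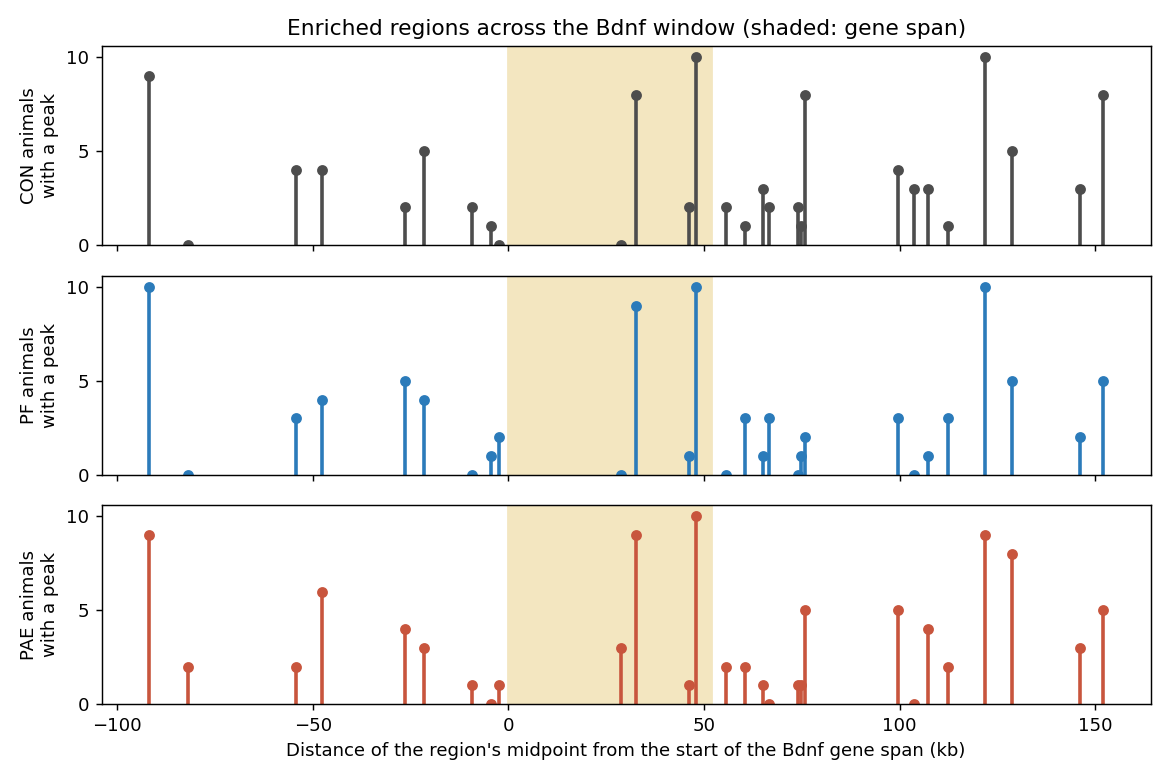
Number of animals with a called peak (vertical axis, of 10 per group) at each of the 28 regions against the distance of the region's midpoint from the start of the Bdnf gene span in kb (horizontal axis), with 1 panel for each of CON, PF and PAE and the gene span shaded. The first 28710 bp of the span are empty in all 3 panels, and the region at 47.9 kb reaches 10 animals in each.

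The value of an animal at a region is its normalized height, the highest pileup of fragments in its peak per 1000000 filtered fragments. An animal without a called peak, or with a lower one, was given a common floor of 0.438. Coverage without a called peak is not known and can be under or over that floor, so differences that involve such animals can be understated or overstated. Regions are named by their coordinates in Rn6 and by the distance of their midpoint from the start of the gene span.

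The most widely called region of the locus was chr3:100815504-100816319, at 47.9 kb, which is within the gene span and close to its far end. It was called in all 30 animals, from pileups of 8 to 22 fragments, with a median enrichment of 5.49-fold over the local background that the peak caller estimates. Its normalized height had a lowest, median and highest value of 0.860, 1.13 and 1.58 in CON animals, of 0.725, 1.17 and 1.46 in PF animals, and of 0.543, 1.10 and 1.5 in PAE animals. Its mean was 1.24 ± 0.249 in CON, 1.10 ± 0.227 in PF and 1.07 ± 0.311 in PAE (SD, n = 10 each), so the 3 groups overlapped over most of their ranges. On the log2 scale PAE minus CON was -0.25 (SE 0.170, 95% interval -0.60 to 0.10, limma adjusted p = 0.740). PF minus CON was -0.22 (SE 0.176, 95% interval -0.58 to 0.14, adjusted p = 0.820). PAE minus PF was -0.027 (SE 0.170, 95% interval -0.38 to 0.32, adjusted p = 0.997). Leaving out 1 animal at a time moved PAE minus CON between -0.32 and -0.11, the smallest without PAE replicate 8, and PF minus CON between -0.30 and -0.12, the smallest without CON replicate 6. None of these differences passed the test, and the intervals still allow the height in PAE to be either somewhat lower or slightly higher than in CON. Within sequencing chips the difference of PAE from CON ran from -0.81 to 0.34 and was below 0 in 3 of 4 chips, and that of PF from CON ran from -0.65 to 0.089, also below 0 in 3 of 4. Without the 18 libraries that go against the labelled sex the estimates were further below 0. They were -0.70 (SE 0.275, limma adjusted p = 0.71) for PAE minus CON and -1.14 (SE 0.377, limma adjusted p = 0.871) for PF minus CON, again without passing the test. Of the CON and PF animals in that fit, only CON replicate 6 and PF replicate 9 shared a chip.

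The other widely called region within the gene was chr3:100800142-100801213, at 32.7 kb, with a peak in 8 CON, 9 PF and 9 PAE animals. This region is 1072 bp long and its summits, the points of highest pileup, were spread over 656 bp, while the median length of a peak in it was 357.5 bp, so animals did not all peak at the same place. The normalized height had a lowest, median and highest value of 0.438, 0.930 and 1.20 in CON, 0.438, 0.693 and 1.10 in PF, and 0.438, 0.918 and 1.77 in PAE. Its highest value, 1.77 in PAE replicate 2, was well above the next PAE animal at 1.15. PF animals had the lowest mean, 0.706 ± 0.211, beside 0.862 ± 0.294 in CON and 0.945 ± 0.362 in PAE (SD, n = 10 each). The log2 difference was 0.042 (SE 0.244) for PAE minus CON, -0.27 (SE 0.253) for PF minus CON and 0.31 (SE 0.245, 95% interval -0.19 to 0.81) for PAE minus PF, with adjusted p-values of 0.980, 0.842 and 0.964. Within chips PAE minus PF ran from -0.17 to 0.70 over 3 chips, and without the 18 libraries it was 0.46 (SE 0.520). Leaving out 1 animal at a time moved PAE minus CON between -0.13 and 0.19, so its sign depended on the animal left out, and PAE minus PF between 0.21, without PF replicate 9, and 0.55, without PAE replicate 1 (unadjusted p = 0.0279, limma adjusted p = 0.954).

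The remaining regions of the gene span were called in few animals. The region chr3:100796710-100796994, at 28.9 kb, had a peak in 3 animals, all of the PAE group, with heights of 0.787 in replicate 3, 0.550 in replicate 4 and 0.591 in replicate 6. No CON and no PF animal had a peak there, so it was kept as a region of the locus through PAE animals alone. A higher value in PAE was thus fixed by the choice of regions, and its tests are given as a description. With 3 of 10 against 0 of 10, Fisher's exact test gave an unadjusted p of 0.211, and PAE minus CON was 0.16 (SE 0.083, 95% interval -0.008 to 0.33, limma adjusted p = 0.727). Without PAE replicate 3 the difference was 0.085 (SE 0.048). The region chr3:100813816-100814376, at 46.1 kb, had a peak in 2 CON animals (0.515 and 1.00), 1 PF animal (0.712) and 1 PAE animal (0.606). Its differences between groups were within -0.032 and -0.002 on the log2 scale, with SEs of 0.128 to 0.132.

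**Figure D2:**
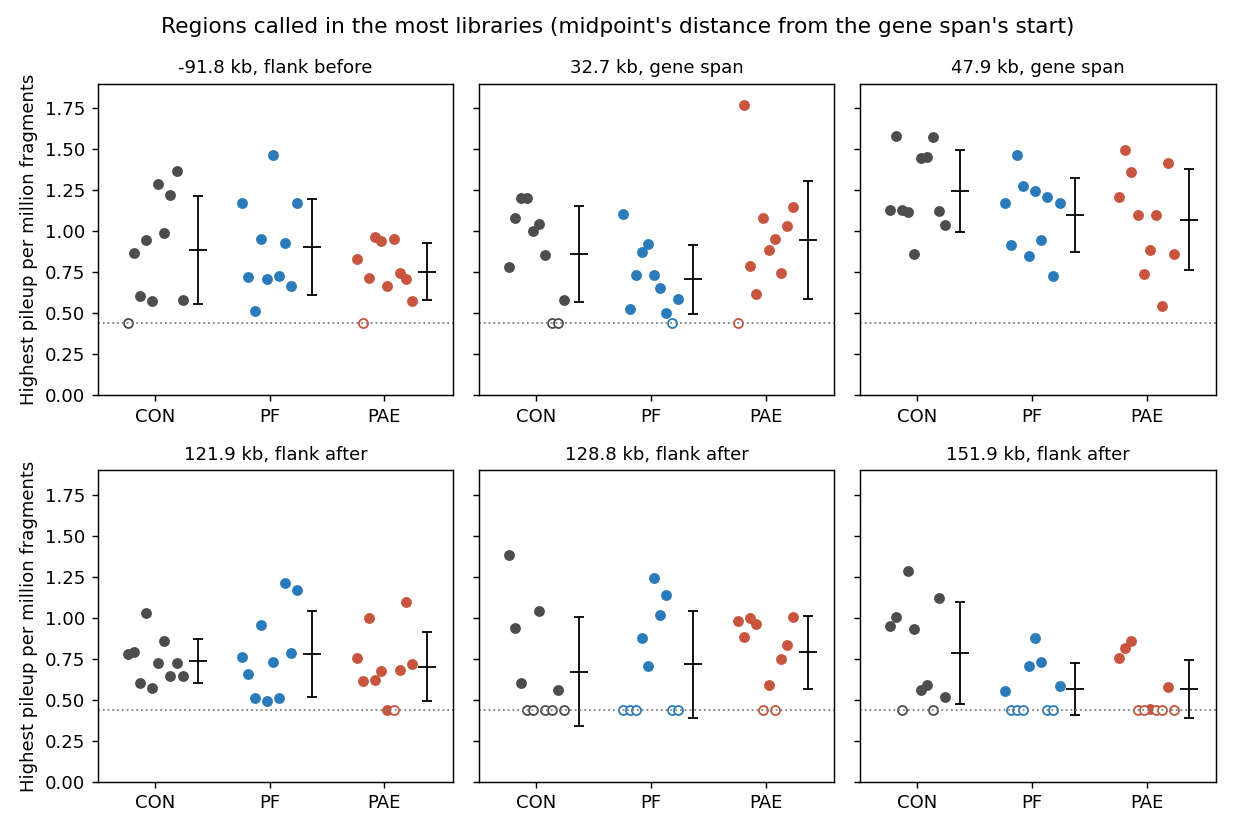
Normalized height, the highest pileup per 1000000 filtered fragments (vertical axis, from 0), of every animal at the 6 regions called in 18 or more animals. Filled points are called peaks and open points animals without one, set to the floor of 0.438 (dotted line), and the bars give the mean ± SD of the 10 animals of a group, with the floor values included. The 3 groups overlap at all 6 regions, and the point at 1.77 in the panel at 32.7 kb is PAE replicate 2.

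In the flanks, 4 regions stood out by the number of animals with a peak. The region chr3:100675815-100676592, 91.8 kb before the gene span, had a peak in 9 animals of CON, 10 of PF and 9 of PAE, with medians of 0.904, 0.827 and 0.731 and highest values of 1.36, 1.46 and 0.962. The region chr3:100889583-100890207, at 121.9 kb, had a peak in 10 animals of CON, 10 of PF and 9 of PAE, with medians of 0.723, 0.746 and 0.676 and highest values of 1.03, 1.21 and 1.09. Neither separated the groups, and the smallest limma adjusted p over the 4 flank regions was 0.727. The region chr3:100896490-100897082, at 128.8 kb, had a peak in 5 CON, 5 PF and 8 PAE animals. It had means of 0.672 ± 0.335 in CON, 0.718 ± 0.327 in PF and 0.788 ± 0.225 in PAE (SD, n = 10 each), a spread within groups larger than the steps between them. Without the 18 libraries, the region 91.8 kb before the gene span had a PAE minus CON of -0.69 (SE 0.238, limma adjusted p = 0.707), beside -0.16 (SE 0.229) in all 30 animals, and PF minus CON turned from 0.12 (SE 0.237) to -0.76 (SE 0.326, limma adjusted p = 0.871).

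The fourth, chr3:100919638-100920228, at 151.9 kb and across the far edge of the window, had a peak in 8 CON animals but in 5 PF and 5 PAE animals. The lowest, median and highest heights were 0.438, 0.762 and 1.29 in CON, 0.438, 0.495 and 0.879 in PF, and 0.438, 0.441 and 0.859 in PAE. The 3 groups overlapped, but the 5 highest CON animals, at 0.931 to 1.29, were above every PF and PAE animal. PAE minus CON was -0.43 (SE 0.207, unadjusted p = 0.0475, limma adjusted p = 0.727) and PF minus CON was -0.49 (SE 0.215, unadjusted p = 0.0302, limma adjusted p = 0.766). Both contrasts use the same CON animals. Within chips PAE minus CON ran from -0.66 to 0.35 and PF minus CON from -1.28 to 0.37, each below 0 in 3 of 4 chips and above 0 in chip UEX000296. That chip held 1 CON animal, as did UEX000297, where both were below 0, and UEX000299, with the lowest values, held 1 PF animal. Leaving out 1 animal moved them between -0.55 and -0.33 and between -0.65 and -0.36. Without the 18 libraries the values were -0.68 (SE 0.297) and -0.58 (SE 0.407). Within labelled males alone PF minus CON was 0.066.

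PF animals had fewer peaks than CON animals at chr3:100843515-100843958, at 75.7 kb. A peak was called there in 8 CON, 2 PF and 5 PAE animals, and the PF peaks had heights of 0.983 in replicate 2 and 0.512 in replicate 10. The medians were 0.694 in CON and 0.438, the floor, in PF and PAE. PF minus CON was -0.52 (SE 0.217, 95% interval -0.97 to -0.077, unadjusted p = 0.0234, limma adjusted p = 0.766), and it was below 0 in all 4 chips with both groups, at -0.70 to -0.33. Of these chips, UEX000296 and UEX000297 each held 1 CON animal and UEX000299 held 1 PF animal. Leaving out 1 animal moved it between -0.62 and -0.45. The counts of animals alone, 8 of 10 against 2 of 10, gave an unadjusted p of 0.0230 and an adjusted p of 1.00 by Fisher's exact test. That was the only region of the 28 with an unadjusted p under 0.05 by that test in any contrast, while 0.640% of all autosomal regions had one for PF against CON. Without the 18 libraries the difference was -0.44 (SE 0.499).

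Between PAE and PF, the smallest p-values were at a pair of regions after the gene that few animals carried. At chr3:100834398-100834762, at 66.6 kb, 3 PF animals had peaks of 0.875, 0.495 and 0.655, 2 CON animals had peaks of 0.576 and 0.482, and no PAE animal had a peak. PAE minus PF was -0.24 (SE 0.092, unadjusted p = 0.0158, limma adjusted p = 0.964). At chr3:100827955-100828793, at 60.4 kb, 3 PF animals had peaks of 0.721, 1.19 and 0.510, 2 PAE animals of 0.453 and 0.511 and 1 CON animal of 0.720. There PAE minus PF was -0.32 (SE 0.131, unadjusted p = 0.0214, limma adjusted p = 0.964). Within the 3 chips that held both groups, these differences were below 0 or at 0 at 66.6 kb, down to -0.998, and below 0 in all 3 at 60.4 kb, from -1.37 to -0.031. Both of these lowest values within a chip are from UEX000299, where PF replicate 4 was the only PF animal. Without PF replicate 4 the difference was -0.11 (SE 0.065, unadjusted p = 0.100) at 66.6 kb and -0.15 (SE 0.095, unadjusted p = 0.133) at 60.4 kb by limma, and 0 Bdnf regions had an unadjusted p under 0.05 for PAE against PF. Both regions rest on 5 or 6 animals, with all others at the floor.

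Over the locus as a whole, no region of Bdnf passed the test in any contrast. At an adjusted p under 0.05 limma called 0 of the 28 regions for PAE against CON, where 0.000231% of all regions, 1 region, was called, and 0 of 28 for PF against CON and for PAE against PF, where 0% was called. At an unadjusted p under 0.05 there was 1 region for PAE against CON (6.67% of all regions), 3 for PF against CON (5.90%) and 2 for PAE against PF (4.18%), which is near the background. The additional region in PF against CON was chr3:100841792-100842071, at 73.9 kb, called in 2 CON and 1 PAE animal, with a difference of -0.11 (SE 0.052, limma unadjusted p = 0.0407, adjusted p = 0.766). That region was kept only through its CON animals and no PF animal had a peak there. A lower value in PF was thus fixed by the choice of regions, and its test is given as a description. Fisher's exact test called 0 of 28 in each contrast after adjustment (0% of all regions), and at an unadjusted p under 0.05 it had 0 Bdnf regions for PAE against CON (0.704% of all regions) and for PAE against PF (0.609%). Without the 18 libraries that go against the labelled sex, 18 of the Bdnf regions could be tested. Limma called 0 of them in each contrast (0.000365% of 274324 regions for PAE against CON and 0% for the others), and at an unadjusted p under 0.05 there were 2 for PAE against CON (6.74%), 2 for PF against CON (5.28%) and 0 for PAE against PF (3.57%). The pair was the same in both, the region of the gene span at 47.9 kb and the flank region 91.8 kb before it, each lower than in the 3 CON animals that were left.

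The signs of the differences leaned the way of all regions in the contrasts with CON and were more even between PAE and PF. PAE minus CON was below 0 at 19 regions and above 0 at 8, with a median of -0.046, while all autosomal regions had a median of -0.038 and 61.7% of them were below 0. PF minus CON was below 0 at 16 and above 0 at 11, with a median of -0.009 against -0.022. PAE minus PF was below 0 at 12 and above 0 at 15, with a median of 0.004 against -0.015, while 55.1% of all regions were below 0. The lean of all regions to values below 0 depended on scaling: after quantile normalization 52.3%, 50.4% and 50.9% of all regions were below 0 in the same order, and the Bdnf regions below and above 0 were then 15 and 12, 14 and 13, and 12 and 15. Some of the signs in these counts were set by the choice of regions. The region chr3:100871545-100871820, at 103.7 kb, had a peak in 3 CON animals alone, and that at 28.9 kb in PAE animals alone. The region at 73.9 kb and that 9.4 kb before the gene span had peaks in 2 CON animals and 1 PAE animal. Both were kept only through their CON animals. The region chr3:100685748-100686192, 82.0 kb before the gene span, was at the floor in all animals, because its peaks in 2 PAE animals were lower than the floor, and has no direction. In some contrasts both groups were wholly at the floor, so the sign came only through the sex and chip terms. These were PAE minus PF 9.4 kb before the gene span (0.093) and at 103.7 kb (0.007), both counted above 0. The others were PF minus CON at 28.9 kb (0.024) and PAE minus CON 2.3 kb before the gene span (-0.022). The count above 0 between PAE and PF rests in part on such signs.

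**Figure D3:**
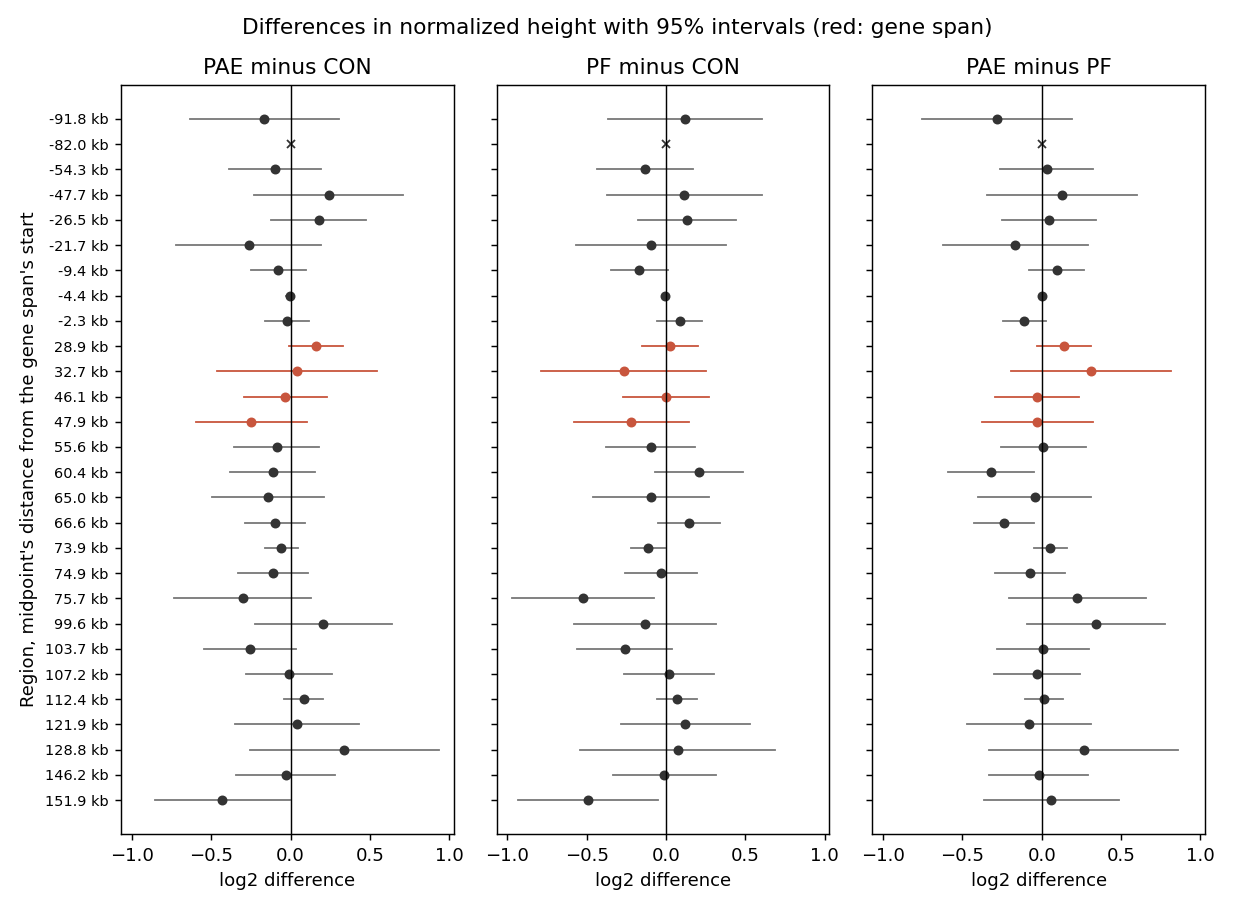
Log2 difference in normalized height (horizontal axes) at the 28 regions, ordered along the chromosome by the midpoint's distance from the start of the gene span in kb (vertical axis), for PAE minus CON, PF minus CON and PAE minus PF, with 95% intervals from limma. Gene span regions are red, and a cross marks the region at the floor in all animals. The intervals shown are not adjusted for the number of regions, and those that leave out 0 are the 1, 3 and 2 regions at an unadjusted p under 0.05.

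The precision of the fit sets what could be seen at Bdnf. At the 7 regions called in 15 or more animals the SE of PAE minus CON ran from 0.170 to 0.289, and the median 95% interval reached 0.43 on either side of the estimate. Regions called in up to 5 animals had smaller SEs, from 0.009 to 0.172, because most of their animals sit at the floor, and these understate the uncertainty about methylation there.

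Per animal, the number of Bdnf regions with a peak was 10.3 ± 2.54 in CON, 8.8 ± 1.40 in PF and 9.9 ± 1.91 in PAE (SD, n = 10 each), from 6 to 14. Over all autosomal regions, CON animals had peaks in 33.1 ± 5.64% of them, PF in 31.6 ± 4.10% and PAE in 29.8 ± 5.70%. Normalized heights summed over the 28 regions were 16.4 ± 1.31 in CON, 15.3 ± 1.09 in PF and 15.6 ± 1.06 in PAE. In the gene span alone the sums were 3.05 ± 0.377, 2.71 ± 0.355 and 2.97 ± 0.541. The called peaks covered 3855 ± 778 bp in CON, 3402 ± 494 bp in PF and 3837 ± 532 bp in PAE. These sums are descriptions without a test, and PF was the lowest of the 3 groups in each of them, by less than the SD of the CON animals.

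**Figure D4:**
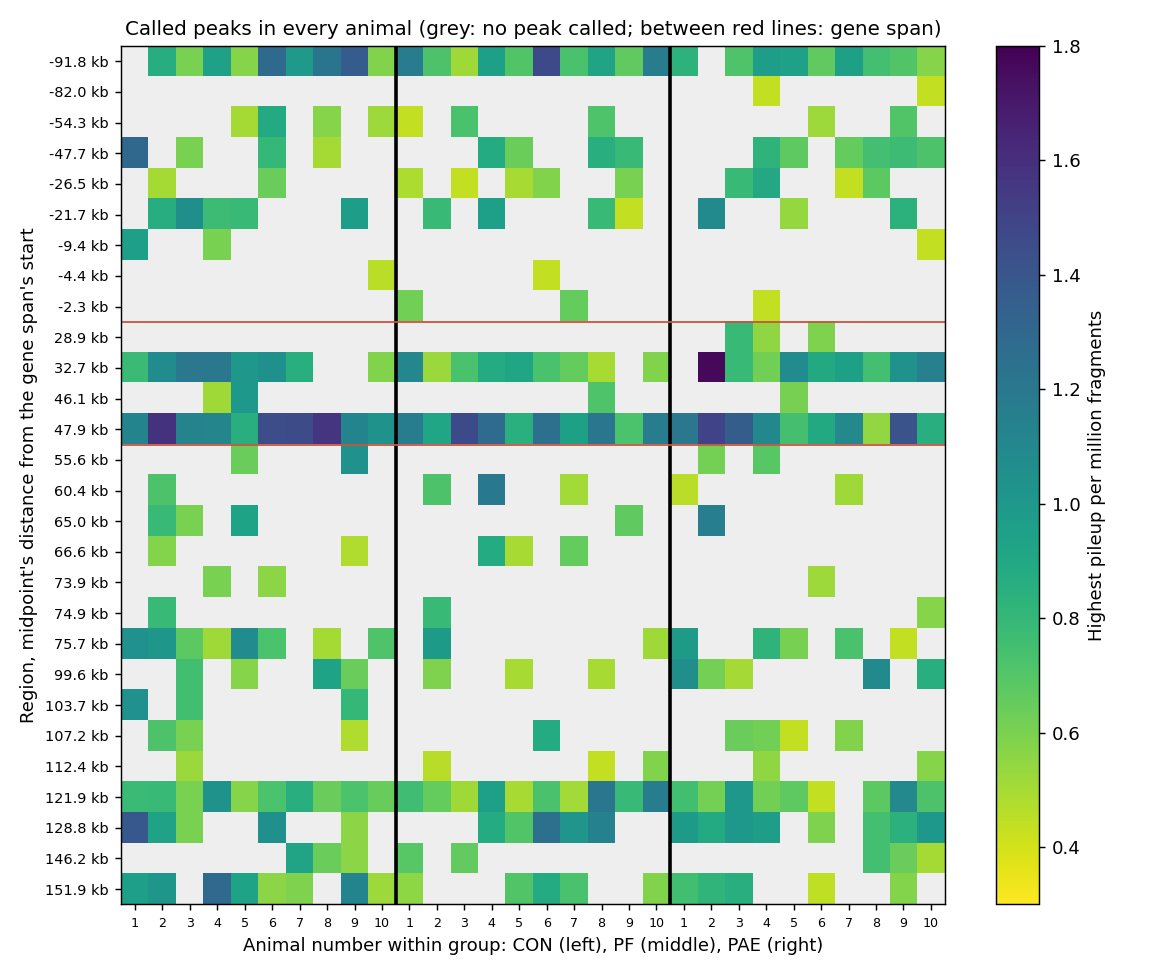
Normalized height of each called peak (colour, highest pileup per 1000000 filtered fragments) at the 28 regions (vertical axis, midpoint's distance from the start of the gene span) in the 30 animals (horizontal axis, 10 CON, 10 PF and 10 PAE from left to right), with grey where no peak was called. The rows at -91.8, 32.7, 47.9 and 121.9 kb are filled in 26 or more animals. Most other rows are filled in few animals, and some of them in no animal of a group.

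No Bdnf region passed the test of whether a prenatal effect differed between the labelled sexes. The interaction of group with labelled sex called 0 of the 28 regions in each contrast at an adjusted p under 0.05, as it called 0% of all regions. At an unadjusted p under 0.05 there was 1 region for PAE against CON (4.86% of all regions), 4 for PF against CON (4.81%) and 1 for PAE against PF (2.98%). The smallest p-value was at chr3:100914013-100914391, at 146.2 kb, where the peaks were in 3 labelled males of CON, 2 labelled females of PF and 3 labelled males of PAE (PF against CON, males minus females -0.83, SE 0.268, unadjusted p = 0.00515, limma adjusted p = 0.942). At the 32.7 kb region of the gene span the difference of PAE from CON was higher by 0.98 in labelled males than in labelled females (SE 0.437, unadjusted p = 0.0351, limma adjusted p = 0.909). At 151.9 kb the difference of PF from CON was higher by 0.90 in labelled males (SE 0.394, unadjusted p = 0.0310, limma adjusted p = 0.942). The mismatch of labels and sex chromosomes bears on each of these values, and its part in them was not tested.

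Heights at different regions of the locus were weakly related across animals. Among the 6 regions called in 18 or more animals, Pearson's r of log2 heights over the 30 libraries ran from -0.28 to 0.29 over the 15 pairs, and the 2 widely called regions of the gene span had an r of 0.10. The region at 47.9 kb had an r of 0.10 to 0.29 with the others of these 6. Out of the many regions elsewhere in the genome, some were more like it. Among 37967 regions called in at least 25 animals, with a median r of 0.22, the 3 most like it were chr12:13415392-13416369 (r = 0.82), chr10:20144838-20145420 (r = 0.78) and chr3:170021344-170022299 (r = 0.77). All these values share the libraries and their depth, the 3 were chosen as the highest of many, and they are given as a description.

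Regions at receptors of the neurotrophins were looked up as far as their Rn6 positions were at hand. Those of Ntrk2 and Ntrk3 are listed in the study's supplementary tables because of differences in these same samples, so their values are a description. In an intron of Ntrk3, the receptor for neurotrophin 3, chr1:140258722-140259176 had a peak in 8 CON, 6 PF and 1 PAE animal, with highest values of 1.01, 0.875 and 0.619. Its mean was 0.591 ± 0.174 in CON, 0.580 ± 0.186 in PF and 0.456 ± 0.057 in PAE (SD, n = 10 each), and PAE minus PF was -0.39 (SE 0.165, limma adjusted p = 0.964). In an intron of Ntrk2, the TrkB receptor of Bdnf, chr17:6016359-6016939 had a peak in 2 CON, 1 PF and 1 PAE animal. Neither passed the test in any contrast after adjustment over all regions.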

How the data were processed

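DNAm was measured by meDIP-seq in the PFC of 30 rats, 1 library per animal, with group, labelled sex, dam and chip taken from the sample labels. Per the study's methods, the authors mapped reads to Rn6 (BWA) and filtered out duplicates, unpaired reads and reads of low mapping quality (samtools). They called peaks in each library on its own with MACS2 (2.1.4 per the file headers), using read pairs, a q-value cutoff of 0.05 and no control library. The deposited pileup signal is the fragment coverage at a summit, not scaled for library size. The deposited fold enrichment and the deposited −log10 p and −log10 q of a peak are against the local background of the same library.

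Here peaks overlapping by 1 bp were merged, and each animal's highest pileup was scaled to 1000000 filtered fragments, with a common floor of 0.438. That floor is the largest, over libraries, of the lowest called value. Log2 heights of all 432103 autosomal regions called in at least 2 libraries were fitted with limma 3.58.1 (R 4.3.3; trended prior variance; group, labelled sex and chip), with p-values adjusted by the Benjamini-Hochberg method over all of them. The study's own tests started from read counts, which were not used here. Animals were the replicates, and p-values measure the spread between them. The members of the locus and the gene list were chosen with earlier results of these data known, and some genes of that list are not reported here. Named regions are those of the gene span, the 4 flank regions called in the most libraries and the 2 with the smallest unadjusted p in each contrast. The 73.9 kb, 103.7 kb and 146.2 kb regions and those 9.4 kb and 2.3 kb before the gene span were added after their values were seen. The alternatives changed the minimum of libraries (3), chip and sex terms, floor (own floor, or 0 with a pseudocount of 0.1), scaling, peak threshold (q below 0.01), overlap (50%), litter, the test and the animals included. The fit was tested on simulated data. Promoters came from RefSeq (GRCr8). Python 3.11.15, numpy 2.4.6, pandas 2.3.3, scipy 1.17.1 and matplotlib 3.10.9 were used.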

Additional observations from a re-analysis of the deposited data

Results flagged for a closer look

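At 1.77, PAE replicate 2 was above the other PAE animals at the 32.7 kb region of the Bdnf gene span. Dixon's test marked it at the 95% level, but only by a narrow margin. The same test marked 13 of the 42 sets of 10 values examined, where chance marks about 1 in 20. Most of these sets held few called peaks above a common floor, so that the highest peak stands apart: 0.787 in PAE at 28.9 kb; 1.00 in CON, 0.712 in PF and 0.606 in PAE at 46.1 kb; 0.720 in CON, 1.19 in PF and 0.511 in PAE at 60.4 kb. The others of this kind were 0.576 in CON and 0.875 in PF at 66.6 kb and 0.983 in PF at 75.7 kb.

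The number of gene span regions with a peak was 3 in PF replicate 8 and 1 in PF replicate 9, above and below the other PF animals at 2. It was 1 in PAE replicate 1, below the other PAE animals. These counts ran only from 1 to 3 over all animals.

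Outside the 28 regions, 11 peaks of the window were called in 1 library only, 7 of them in PF and 3 in PAE libraries beside 1 in CON libraries. Over all autosomes, 36.9% of such regions were in CON, 32.1% in PF and 31.0% in PAE libraries.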

How the results depend on the processing

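In none of the 17 alternatives and 30 fits without 1 animal was a Bdnf region called at an adjusted p under 0.05, and the smallest adjusted p over those on heights was 0.251. Without 1 animal, regions at an unadjusted p under 0.05 numbered 0 to 3 for PAE against CON, 1 to 5 for PF against CON and 0 to 3 for PAE against PF, with 0 in the last only without PF replicate 4. Of 14 log2 differences followed at 8 regions, 5 kept their sign in every setting that could be fitted. At 32.7 kb PAE minus CON turned to -0.40 within labelled females and ran from -0.13 to 0.19 without 1 animal. There PF minus CON turned to 0.14 with 0 in place of the floor, and the share of animals with a peak was higher in PF than in CON by 0.10. PAE minus PF turned to -0.037 there within labelled females. At 47.9 kb PAE minus PF, -0.027 as reported, turned to 0.026 with median ratio scaling, 0.036 with quantile normalization, 0.088 within labelled males and 0.44 without the libraries that go against the labelled sex, and ran from -0.10 to 0.028 without 1 animal. PF minus CON turned there to 0.0050 within labelled females. At 151.9 kb PF minus CON turned to 0.066 within labelled males, and at 60.4 kb PAE minus PF turned to 0.023 without the libraries that go against the labelled sex. At the region 91.8 kb before the gene span PAE minus CON turned above 0 in 3 alternatives, by up to 0.14. Among these it was 0.039 with quantile normalization and 0.0098 with peaks covering at least 50% of the region. PF minus CON there turned to -0.76 without the libraries that go against the labelled sex, -0.057 with the 50% overlap and -0.050 within labelled males, and ran from -0.0012 to 0.23 without 1 animal. The cause of these turns was not tested.

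Animals could not be paired between groups, because the labels give no replicate numbers and the litter mates of a dam are in the same group. Litter entered as a random effect in 1 alternative, and a fit of the sex interaction within litters was not run. The estimated correlation within litters was -0.0043. Pileups of 5 to 26 fragments lie behind the called peaks at Bdnf, and coverage under the calling threshold is not in the peak lists, which limits what can be seen at regions called in few animals. In the fit without the libraries that go against the labelled sex, 3 CON and 3 PF animals remained.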
